A study of Mus musculus with 217 samples.

Results

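Proteoglycans are core proteins that carry long sulfated sugar chains, and in cartilage the chondroitin sulfate chains of aggrecan hold the water that lets the tissue bear load. Each chain starts with a linker of xylose, galactose and glucuronic acid on a serine of the core protein. It is then extended by chondroitin or heparan polymerases in the Golgi and sulfated there with PAPS, the activated sulfate that cells make from imported sulfate. In mice, loss of the PAPS synthase Papss2 or of the chondroitin 4-O-sulfotransferase Chst11 gives short limbs, and in humans mutations of the sulfate transporter SLC26A2 or of the heparan polymerases EXT1 and EXT2 cause skeletal disease.

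The genes described here are those for synthesis and sulfation of proteoglycan chains, measured in single cells. The cells came from wild-type mice of strain C57/BL, from tibial growth plates taken at postnatal day 7. This cartilage lengthens a long bone, and its chondrocytes mature from dividing cells to hypertrophic cells, which make collagen X (Col10a1). All 217 cells carry the same labels, no animal is named for any of them, and they were treated as 1 sample of 1 group without a test. The labels give no sort or zone, so that profiles were set apart here by their own Acan and Col10a1 values.

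The members were the genes whose symbols begin with Chst, Chsy, Chpf, Csgalnact, B3gat, B4galt, B3galt, Xylt, Ext1, Ext2, Extl, Hs2st, Hs3st, Hs6st, Ndst, Papss, Dse or Slc35, together with Ust and Slc26a2. In all, 59 of 9739 named genes matched. The match used symbols only, but the members were chosen with earlier results of these data known. Every named gene was above 0 in at least 10 columns. Of the 59, 31 act on the linker, on chondroitin, dermatan or heparan chains, or in the supply of activated sulfate. The others are keratan and N-glycan transferases, glycolipid and other glycan transferases, and Slc35 carriers, a family of Golgi and ER transporters in which several members have no settled substrate. The symbols also took in B3galtl, a glucosyltransferase that does not act on proteoglycan chains. Of the genes listed for the roles of the members, 34 were not among the named genes, Chst3, Chst7, Chst13, Chst14 and Chpf among them.

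Of the 217 columns, 52 fell into 23 sets that correlated at 0.96 or more over all genes and were averaged as repeats of a cell. A further column, which resembled several other sets, was dropped. The averaged sets and the remaining single columns are called profiles. Acan, which encodes the aggrecan core protein, was at least 5 on the deposited log2 scale in all but 11 profiles (median 9.19, lowest 6.67). In those 11 it was 2.91 or less and listed at 0 in 9, and no profile lay between 4 and 6. In the profiles with Acan at least 5, which are the base of every value unless another is named and number 39 without Col10a1, 55 with an intermediate level and 82 high in it, Hapln1 (link protein) and Sox9 (the chondrocyte transcription factor) were detected throughout. A gene was called detected where the back-transformed value was at least 1. Depth per cell is unknown because the values were scaled before deposit, and an exact 0 can be a failed estimate. A median of 3463.5 genes was detected in a profile (1326 to 4994). Intervals of shares are 95% exact Clopper-Pearson intervals and cover counting error only. Each SD is a spread over profiles unless repeats are named.

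Detection of the 59 members ran from 3.98% of profiles (Extl2, a heparan chain gene) to 100% (Chst11). Of them, 18 were detected in at least 50% of profiles (30.5% of the members), against 28.3% of all genes. A further 19 lay between 20% and 50%, and 22 were below 20%. A profile detected 8 to 33 members, with a median of 22. This number followed the number of all genes detected, with a Spearman rho of 0.82 over these profiles. Because the level of a transcript cannot be set against that of another gene without its length and unit, levels are compared below within a gene only.

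**Figure D1:**
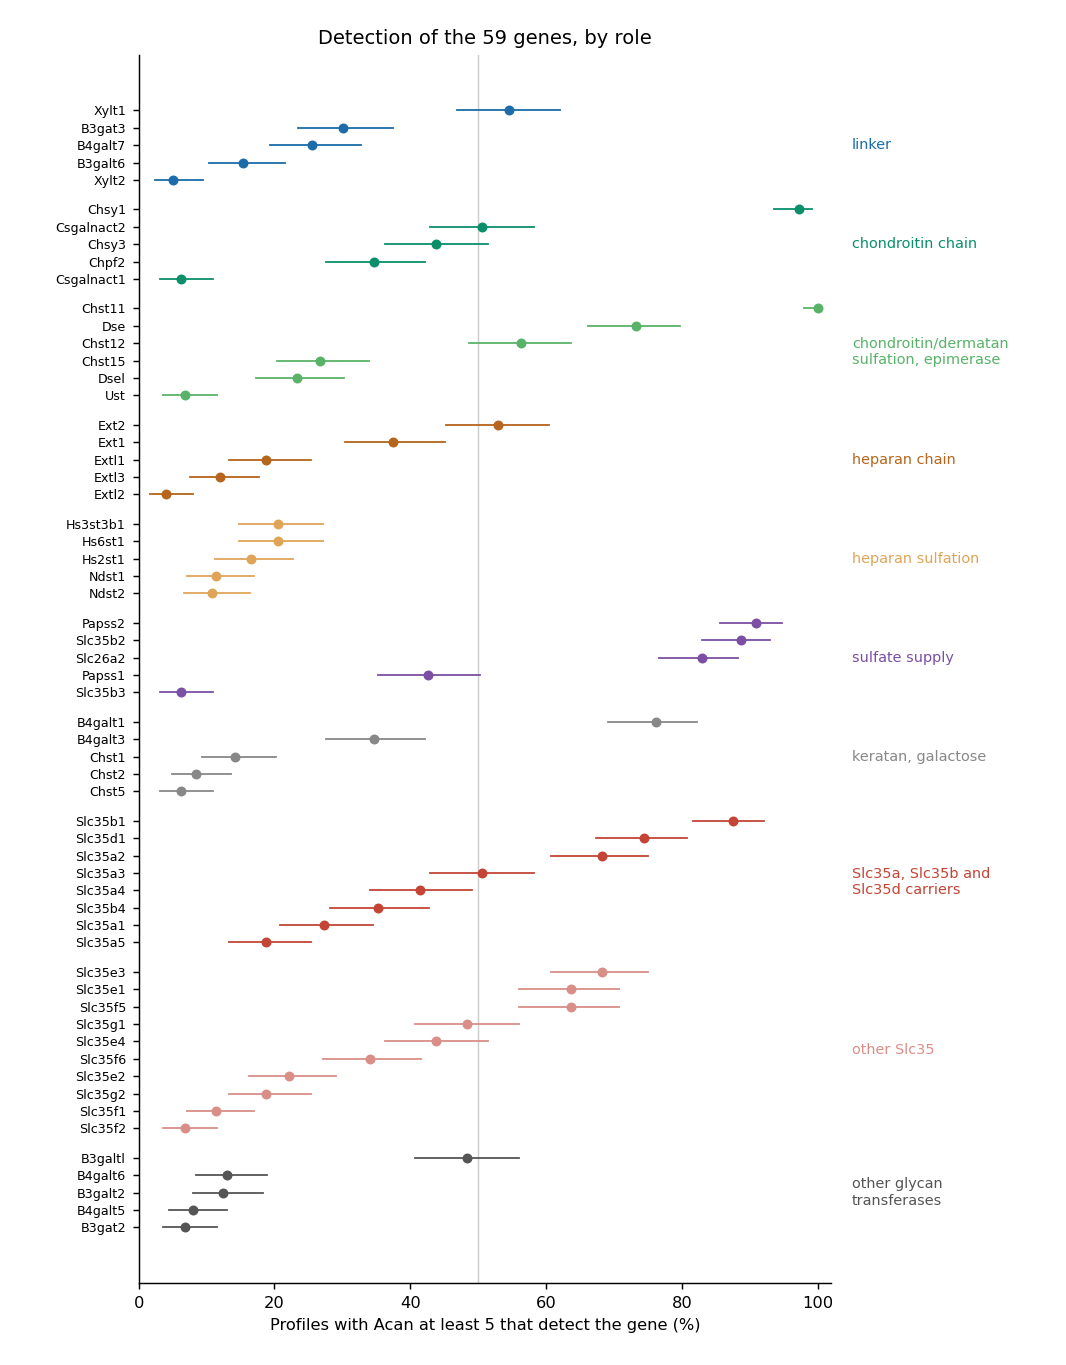
Share of profiles with Acan at least 5 in which each of the 59 members was detected (%), with 95% exact intervals as horizontal lines and members grouped by role. The vertical line marks 50%, and Chst11, Chsy1, Papss2, Slc35b2, Slc35b1 and Slc26a2 lie above 80%.

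Nearly every profile held a detected gene for chondroitin polymerization and for its 4-O-sulfation. Chst11, which sulfates N-acetylgalactosamine of chondroitin at position 4 (the gene spans chr10:82984440-83195904 in GRCm38.p6), was detected in every profile at 1.30 to 9.68 with a median of 7.69. Its mean was 7.52 ± 1.22 (SD), and the SD between repeats was 0.38. Chst12, a second 4-O-sulfotransferase, was detected in 99 profiles (56.2%, interval 48.6 to 63.7%). Chst15, which adds a further sulfate at position 6, was found in 47 (26.7%). Ust, the uronyl 2-O-sulfotransferase, was found in 12 (6.82%). Dse, the epimerase that turns chondroitin into dermatan sulfate, was detected in 73.3% of profiles at a median of 3.79, and Dse or its paralog Dsel in 80.7%.

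Chsy1, a chondroitin synthase with both polymerase activities (chr7:66109492-66173798), was detected in 97.2% of profiles (interval 93.5 to 99.1%) at a median of 8.63, and its highest value was 10.44. The related Chsy3 was detected in 77 profiles and Chpf2 in 61. At least 1 of these 3 was detected in 98.9% of profiles. Of the transferases that start a chondroitin chain on the linker, Csgalnact2 was detected in 89 profiles (50.6%) and Csgalnact1 in 11 (6.25%, interval 3.16 to 10.9%). Both were detected in 7 profiles, Csgalnact2 without Csgalnact1 in 82, and neither in 83.

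The 5 linker genes were detected in 5.11% to 54.5% of profiles each. Xylt1, the xylosyltransferase that starts the linker, was detected in 96 profiles (54.5%) and Xylt2 in 9 (5.11%). B4galt7 and B3galt6, which add the galactoses, were detected in 45 (25.6%) and 27 (15.3%), and B3gat3, which adds the glucuronic acid, in 53 (30.1%). All 4 linker reactions had a detected gene in 2 profiles (1.14%, interval 0.14 to 4.04%). The capture efficiency for these transcripts is not known, so a profile without a detected gene is not shown to lack the reaction. Fam20b, the kinase that phosphorylates the linker xylose and is no member, was detected in 84.7% of profiles.

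Of the genes for heparan sulfate, the polymerases Ext1 and Ext2 were detected in more profiles than the measured sulfotransferases. Because detection is a cut on the level, this order of shares does not rank the genes by expression. Ext1 and Ext2 encode partners that polymerize heparan together. Ext2 was detected in 93 profiles (52.8%) and Ext1 in 66 (37.5%). Both were detected in 37 profiles, Ext1 alone in 29, Ext2 alone in 56 and neither in 54, and their rho was 0.05. Of 15 heparan sulfotransferases listed, 5 were measured, and these stayed at or below 20.5% each. Ndst1, which replaces acetyl groups by sulfate along the heparan chain, was detected in 20 profiles (11.4%).

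Of the 5 genes for the supply of activated sulfate, 3 were detected in at least 50% of profiles. Detection of Slc26a2, the transporter that brings sulfate into the cell, reached 82.95% (interval 76.6 to 88.2%) at a median of 5.28. Papss2, the PAPS synthase of cartilage (chr19:32595669-32667187), was detected in 160 (90.9%, interval 85.7 to 94.7%) at a median of 4.13. Papss1, the second PAPS synthase (chr3:131564764-131643671), was detected in 75 (42.6%, interval 35.2 to 50.3%). A total of 71 profiles held both synthases, 89 held Papss2 alone, 4 held Papss1 alone and 12 neither. Slc35b2, which carries PAPS into the Golgi, was detected in 88.6% of profiles at a median of 5.78. Slc35b3, a second PAPS transporter, was detected in 11 profiles (6.25%).

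Among the carriers and other matched genes, Slc35d1, which moves UDP-glucuronic acid and UDP-N-acetylgalactosamine and is needed for cartilage proteoglycan in mice, was detected in 74.4% of profiles. Slc35a2, a UDP-galactose carrier, was detected in 120 (68.2%) and Slc35a3, a UDP-N-acetylglucosamine carrier, in 89 (50.6%). Slc35b1 was detected in 87.5% of profiles, Slc35e3 in 68.2%, and Slc35e1 and Slc35f5 in 63.6% each. B4galt1, a galactosyltransferase of N-glycans, was detected in 76.1%. Of the genes that make the sugar nucleotides themselves, 10 of 10 listed were measured, with a median share of 85.5%. Among them Ugdh, which makes UDP-glucuronic acid, was detected in 98.9% of profiles.

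The members named here had larger SDs over all profiles than between repeats, as the choice of repeats made likely. Repeats were recognized by their high correlation over these same values. The SD between repeats is also pooled over all 23 sets, including sets in which no column detected the gene. For Papss1 the SD between repeats was 0.29, against 2.65 over all profiles, and in each of the 11 repeat sets that detected it every column did. For Slc26a2 the values were 0.29 and 2.69, for Chsy1 0.33 and 1.83, and for Ext2 0.44 and 2.28. Dse and Csgalnact2 had SDs between repeats of 0.76 and 0.74, against 2.37 and 2.56 over all profiles. Repeats that share the cDNA of a cell do not show the error of capture, so these SDs do not separate technical from biological spread.

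Pairs of members were weakly related in rank, and no values for pairs of other genes are given here. Over the 666 pairs of the 37 members detected in at least 20% of profiles, the median rho was 0.05, and 0.01 once the number of detected genes was held fixed. The partial rho of the pairs ran from -0.28 (Csgalnact2 with Dse) to 0.24 (Chpf2 with Papss2). Slc26a2 and Papss2, successive steps of sulfate activation, had a rho of 0.11 and neither was detected in 5 profiles. Papss2 and the PAPS carrier Slc35b2 had a rho of 0.24. The mean level of the members had a rho of 0.73 with the number of detected genes, 0.40 with Col10a1 and 0.28 with Acan. The number of detected genes itself had a rho of 0.33 with Col10a1 and 0.13 with Acan. The coefficients of the mean level were not adjusted for it, and none for the mean of other genes is given here.

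The members most closely related to Acan in rank were linker, chain and sulfate genes. Spearman's coefficient with Acan was at least 0.2 for 7 of 59 members (11.9%), against 4.84% of all genes. Among genes detected in at least 20% of profiles it was 7 of 37 members (18.9%), against 7.43%. All 7 belonged to the 31 members with a proteoglycan or sulfate role: Papss1 (0.31), Papss2 (0.28), Ext2 (0.26), Chpf2 (0.26), Xylt1 (0.25), B3gat3 (0.23) and Chst15 (0.21). The median over all 59 members was 0.05, against 0.02 over all genes. Holding the number of detected genes fixed left 6 members at 0.2 or more, against 3.78% of all genes, and Chst15 fell below at 0.19. These coefficients describe cells of 1 sample that share library preparation and scaling. Part of Chpf2 (13.8% of its exon bases) and of Chst15 (11.3%) overlaps a gene on the opposite strand, and the use of strand in the authors' counting is not stated.

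Profiles were ranked by Acan and cut into equal groups, and the extreme terciles show the size of these relations. The upper tercile (59 profiles) had Acan of 9.43 to 11.02 and the lower tercile (58 profiles) 6.67 to 8.88. Papss1 was at 0 to 7.99 with a median of 1.94 in the upper tercile, against 0 to 7.42 with a median of 0 in the lower tercile. It was detected in 55.9% of upper-tercile and 24.1% of lower-tercile profiles, and its mean was higher by 1.68. The ranges overlapped almost fully, and the terciles differed in how many profiles held the transcript.

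Papss2, found in most profiles of both terciles, had a median of 4.57 in the upper tercile, against 3.88 in the lower, with means of 4.20 ± 1.53 in the upper tercile and 3.37 ± 1.57 in the lower (SD, n = 59 and 58 profiles). Ext2 was detected in 69.5% of upper-tercile profiles, against 39.7% of lower-tercile profiles, Chpf2 in 50.8% against 22.4%, Xylt1 in 64.4% against 41.4%, and B3gat3 in 42.4% against 17.2%. In all, 8 of 59 members were higher by at least 1 in the upper tercile, against 2.8% of all genes: these were Papss1, Ext2 (1.34), Chpf2 (1.27), Slc35b1 (1.20), B3gat3 (1.19), Xylt1 (1.05), B4galt3 (1.04), an N-glycan galactosyltransferase, and Chst15 (1.01). No member was lower by at least 1, against 1.92% of all genes. The medians of genes detected were 3518 in the upper tercile and 3315 in the lower tercile, and the summed level of the 7 of 8 measured hypertrophic markers (the log2 of their summed back-transformed values) was 0 to 13.76 with a median of 10.09 in the upper tercile, against 0 to 15.06 with a median of 6.56 in the lower. Their part in these differences was not tested.

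Chst11, Slc26a2 and Chsy1, all found in over 80% of profiles, had no rho of 0.2 or more with Acan. Chst11 had a rho of 0.06 with Acan and medians of 7.76 in the upper tercile and 7.67 in the lower tercile. Slc26a2 had a rho of 0.04 and medians of 5.28 in the upper tercile and 5.23 in the lower. Chsy1 had a rho of -0.23, the only member at -0.2 or below, against 2.05% of all genes. Its median was 8.15 in the upper tercile of profiles by Acan, against 8.66 in the lower tercile. The value of Chsy1 was sensitive to the processing: it was -0.03 with upper-quartile scaling, -0.06 over all profiles and -0.09 as a Pearson coefficient. The next lowest among the members detected in at least 20% of profiles were Slc35b4 (-0.11), B4galt1 (-0.06), Slc35a4 (-0.06), Dse (-0.05) and Slc35f6 (-0.03), of which all but Slc35b4 (-0.04) were above 0 with upper-quartile scaling. Of the members detected in fewer profiles, Hs2st1 was lowest at -0.16.

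**Figure D2:**
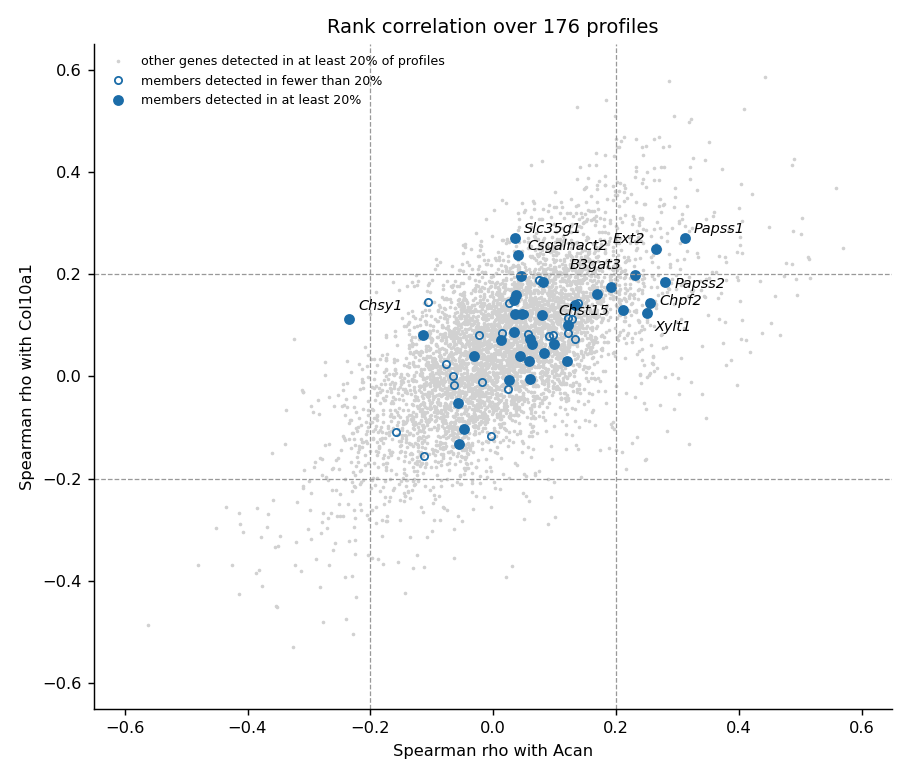
Spearman rho of each gene with Acan (horizontal axis) and with Col10a1 (vertical axis) over the profiles with Acan at least 5. Filled circles are the members detected in at least 20% of profiles, open circles the other members, grey points the other genes detected in at least 20%, and dashed lines stand at 0.2 and -0.2. Papss1 and Ext2 are beyond 0.2 on both axes, and Chsy1 is the only member below -0.2 on the horizontal axis.

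How often members were related to Col10a1, the collagen of hypertrophic chondrocytes, depended on the measure and on the profiles used. Spearman's coefficient with Col10a1 was at least 0.2 for 4 of 59 members (6.78%), against 8.56% of all genes, and for 4 of 37 among genes detected in at least 20% of profiles, against 11.6%. Over all profiles, those with Acan below 5 included, it was 10 of 59 members, against 8.15% of all genes, and Pearson's coefficient reached 0.2 for 7 of 59, against 7.62%. The 4 members were Papss1 (0.27), Slc35g1 (0.27), Ext2 (0.25) and Csgalnact2 (0.24), followed by B3gat3 (0.20) and Slc35a3 (0.20) just under 0.2. No member was at -0.2 or below, against 1.9% of all genes. The lowest among the members detected in at least 20% of profiles were Slc35a4 (-0.13), Dse (-0.10), B4galt1 (-0.05), Slc35f5 (-0.01), B3galtl (-0.01) and Slc35a1 (0.03), a CMP-sialic acid carrier. With upper-quartile scaling B4galt1, Slc35f5 and B3galtl were above 0. Of the members detected in fewer profiles, Chst2 was lowest at -0.16. Col10a1 also had a rho of 0.33 with the number of detected genes and of 0.29 with Acan. With the number of detected genes held fixed, only Slc35g1 (0.21) stayed at 0.2 or more, against 3.79% of all genes.

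Profiles were also set apart by their Col10a1 level. Those without Col10a1 were below 1, those high were at least 8 and the others lay between, and the median numbers of genes detected were 3025, 3518 and 3557. Members detected had medians of 18, 22 and 24 in profiles without Col10a1, between and high. As a share of all genes detected they came to medians of 0.619%, 0.626% and 0.671%. In relative terms the shares differed less between the groups than the numbers of members did.

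**Figure D3:**
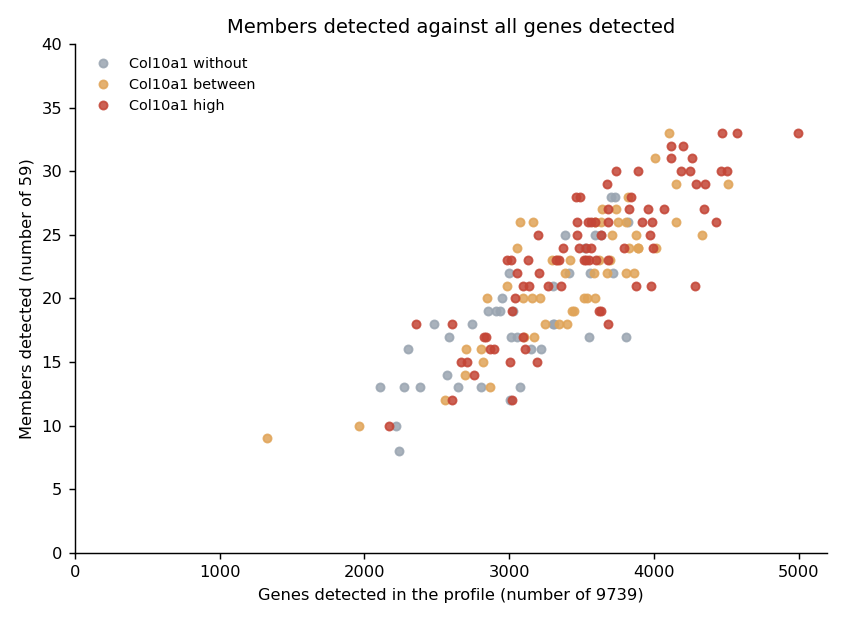
Members detected (of 59) against all genes detected (of 9739) in each profile with Acan at least 5, coloured by Col10a1 group. The points follow 1 rising band, with a Spearman rho of 0.82, and the 39 profiles without Col10a1 reach no further right than 3823 genes.

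In all, 9 of 59 members (15.3%) were higher by at least 1 on the log2 scale in profiles high in Col10a1 than in those without it, against 7.5% of all genes. Among genes detected in at least 20% of profiles it was 9 of 37 (24.3%), against 13.4%. With the number of detected genes regressed out, 4 members remained above 1, against 2.18% of all genes: Slc35g1 (1.36), Ext2 (1.18), Papss1 (1.15) and Slc35b1 (1.10). None of the 59 was lower by at least 1, against 1.54% of all genes. The median difference was 0.34 over the members and 0.14 over all genes, and 0.09 and 0.00 with detected genes regressed out.

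Papss1 had the largest difference of the members. Its median was 2.87 in the 82 profiles high in Col10a1 (0 to 7.99), against 0 in the 39 without it (0 to 7.18), and the means were 2.77 ± 2.81 in high profiles and 0.99 ± 2.17 in those without. It was detected in 20.5% of profiles without Col10a1, 22 of the 55 between and 54.9% of those high, so that the share was lowest without Col10a1 and highest in the high group while the ranges overlapped. Papss2 was detected in 90.2% of high profiles, against 89.7% of those without Col10a1, and its means differed by 0.68.

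Of the chain genes, Ext2 was higher by 1.58, with medians of 2.75 in profiles high in Col10a1 and 0 in those without it. It was detected in 23.1% of profiles without Col10a1, 56.4% of those between and 64.6% of those high. Its partner Ext1 differed by 0.01, with detection in 40.2% of high profiles and 35.9% of those without. Csgalnact2 was higher by 1.35, and was detected in 60.98% of high profiles, against 30.8% of those without Col10a1.

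Chsy1 was higher by 1.22, with medians of 8.62 in high profiles and 8.18 in those without, and 81 of 82 high profiles detected it, against 35 of 39. The profiles without Col10a1 therefore include 4 at which Chsy1 was not detected. Xylt1 differed by 0.43 and B3gat3 by 0.56.

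Of the sulfotransferases, Chst12 was higher by 1.47. It was detected in 59.8% of profiles high in Col10a1, against 35.9% of those without it. Chst11 was level over the groups, with medians of 7.77 in high profiles and 7.63 in those without, and means that differed by 0.27. Slc26a2 had means of 4.71 ± 2.51 in high profiles and 4.38 ± 2.77 in those without. Values of Chst11 and of Slc26a2 overlapped between the groups.

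Among carriers, Slc35g1 was higher by 1.76, Slc35b1 by 1.68, Slc35a3 by 1.49 and Slc35d1 by 1.27. Slc35d1 was detected in 51.3% of profiles without Col10a1, 72.7% of those between and 86.6% of those high. For Slc35a3 the shares were 28.2% without Col10a1, 49.1% between and 62.2% high. The members with the lowest differences were Hs2st1 (-0.64), the heparan 2-O-sulfotransferase, Chst2 (-0.51), an N-acetylglucosamine 6-O-sulfotransferase, Slc35a4 (-0.47), Dse (-0.43), B4galt6 (-0.31), a galactosyltransferase of glycolipids, and B3galtl (-0.28). Hs2st1 was detected in 12.2% of high profiles, against 25.6% of those without Col10a1.

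Other genes moved along with Col10a1 beside the members. The 12 of 13 measured immediate-early genes, which cells can switch on during dissociation, had a median difference of 0.98 (0.21 with detected genes regressed out). Their summed level was 7.35 to 12.93 in high profiles and 6.18 to 11.74 in those without. The 9 of 10 measured osteoblast markers had summed levels of 4.66 to 12.79 (median 8.79) in high profiles. They were 2.90 to 15.29 (median 8.09) in those between, where the highest sum lay. In profiles without Col10a1 they were 2.13 to 9.77 (median 7.35), and Dmp1 was at 0 throughout. Their part in the differences of the members was not tested. Sox9 ran the other way, with a rho of -0.48 with Col10a1. Fam20b, the linker kinase, was higher by 1.16 in high profiles.

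**Figure D4:**
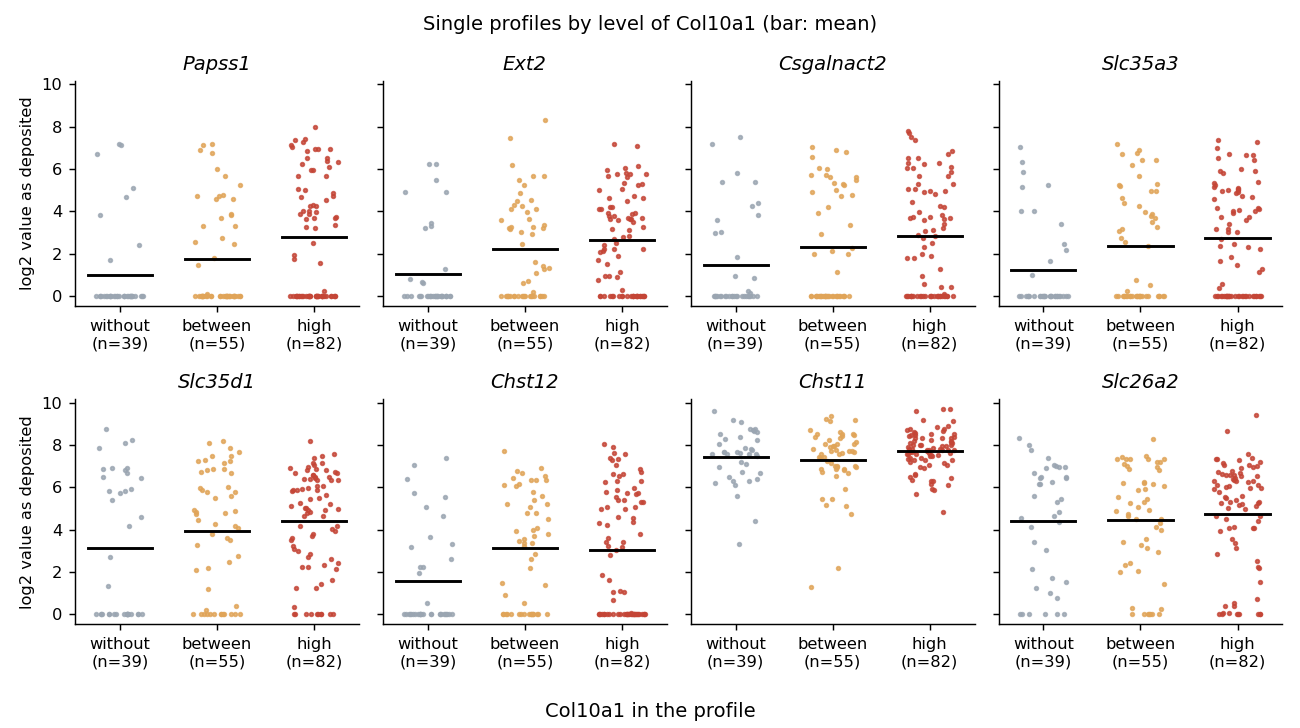
Deposited log2 values of 8 members in single profiles, for profiles without Col10a1 (n = 39), between (n = 55) and high (n = 82), with bars at the means. For Papss1, Ext2, Csgalnact2 and Slc35a3 more profiles lie above 0 toward the right, whereas Chst11 and Slc26a2 have similar means in the 3 groups.

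The 11 profiles with Acan below 5 held fewer of these genes. Most of these profiles carried osteoblast genes. Ibsp, a protein of mineralized matrix, was at least 5 in 9 of the 11 and Col1a1, the main collagen of bone, in 8. The summed level of the 9 measured osteoblast markers was 0 to 15.98 (median 15.17), against 2.13 to 15.29 (median 8.37) in the others. That of the 17 of 20 measured chondrocyte markers was 2.21 to 10.54, against 11.75 to 15.29. The chondrocyte markers include Acan, which set the groups apart, so part of that difference was fixed by the split. A median of 13 members was detected, against 22, and a median of 2757 genes, against 3463.5. As a share of all genes detected, members had medians of 0.566% with Acan below 5 and 0.647% with Acan at least 5.

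In these profiles 17 of 59 members (28.8%) were lower by at least 1, against 16.8% of all genes. Among genes detected in at least 20% of the profiles with Acan at least 5, 17 of 37 members were lower (45.9%), against 30.4%. In that set 3 members (8.11%) were higher by at least 1, against 12.1%. The filter used only the group with Acan at least 5. It therefore favours genes that are lower with Acan below 5, and the 45.9% is no separate support. Of all 59 members, 6 (10.2%) were higher by at least 1, against 10.9% of all genes. The 17 included 11 of the 31 members with a proteoglycan or sulfate role. Of the 10 sugar nucleotide genes, 8 were lower by at least 1. With the number of detected genes regressed out, 12.1% of all genes were lower by at least 1 and 13.5% higher. The shares over all genes thus depend on that number, and its part in the counts of members was not tested.

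Chst11 had the largest difference of the members. It was at 0 in 5 of the 11 profiles with Acan below 5 and at 3.32, 4.56, 5.15, 5.45, 5.66 and 6.52 in the other 6, against a median of 7.69 with Acan at least 5. The ranges overlapped, since the lowest value with Acan at least 5 was 1.30, but every profile with Acan below 5 was under the median of the others. The mean difference was -4.73. Slc26a2 was detected in 2 of the 11, at 3.38 and 7.08, against 82.95% of the others, with a mean difference of -3.61.

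Papss2 was detected in 4 of the 11 profiles (2.14, 2.41, 3.06 and 3.85), against 90.9% of those with Acan at least 5, and its mean differed by -2.79. Papss1 was detected in 7 of the 11 (63.6%, interval 30.8 to 89.1%), against 42.6%. Its mean differed by 0.73, so that the 2 PAPS synthases differed in opposite directions between these groups, which was not tested. Chsy1 was detected in all 11, at 4.49 to 7.95 with a median of 6.0, against a median of 8.63, and its mean differed by -2.10. Xylt1 was detected in 1 of the 11, Csgalnact2 in 2, Chst12 in 2, Ext2 in 1 and Dse in 4.

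Of the 6 higher members (10.2%, against 10.9% of all genes), Ext1, Ndst1 and Ndst2 act on heparan sulfate. The heparan members did not go 1 way. Ext2 (-1.55), Hs3st3b1 (-0.87), Extl1 (-0.69), Extl3 (-0.35) and Hs2st1 (-0.08) had lower means with Acan below 5. Hs6st1 (0.90) and Extl2 (0.08) had higher means. Ext1 was detected in 8 of the 11 profiles with Acan below 5, at up to 7.15 with a median of 5.08, against a median of 0 with Acan at least 5, and its mean was higher by 2.72. Ndst1 was detected in 7 of the 11 (63.6%), against 11.4%, and its mean was higher by 2.32. B4galt1 was detected in all 11, at 3.79 to 8.31 with a median of 5.32, against a median of 3.79, and was higher by 2.10. Slc35e4 was higher by 2.35, Ndst2, a relative of Ndst1, by 1.03, and B4galt5, which adds galactose to glycolipids, by 1.03. With 11 profiles the intervals of these shares are wide, 39.03 to 93.98% for Ext1 and 30.8 to 89.1% for Ndst1.

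**Figure D5:**
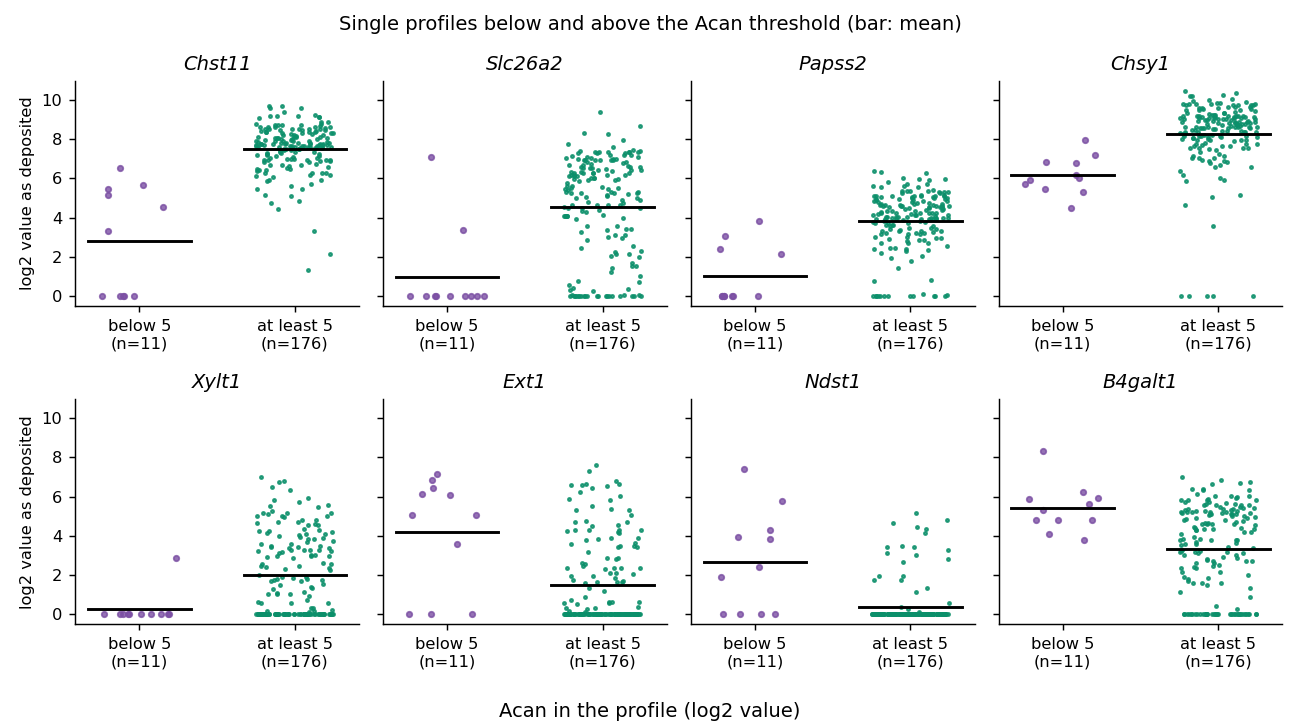
Deposited log2 values of 8 members in single profiles with Acan below 5 (n = 11, left) and at least 5 (right), with bars at the means. Chst11, Slc26a2, Papss2, Chsy1 and Xylt1 have lower means on the left, and Ext1, Ndst1 and B4galt1 have higher means there, with overlapping values for each gene.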

How the data were processed

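Per the labels' protocols, polyA RNA was amplified by a SMARTer kit and libraries were built by Nextera XT. TopHat and the build mm10 are named in the submitters' processing notes; for quantifier, annotation, filters and abundance unit, the answer is not given in the sources used here. Values as deposited lie on a log2 scale (base inferred from the values, pseudocount 1), already scaled for depth by the authors, with back-transformed totals of 394406 to 616257 per cell and each gene above 0 in at least 10 columns. All 217 columns were read.

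Columns with r above 0.95 were averaged, and 1 column was dropped, which left 187 profiles, 176 of them with Acan at least 5; without it, r between sets was at most 0.69. Means, shares, Spearman rho, partial rho given the number of detected genes, and mean differences were computed for every gene, and called at 0.2 for rho and 1 for log2 differences. Counts of members past these values are set beside the share of all genes past them. No test was made, because the cells form 1 sample. Alternatives are in the closing section. The computation was tested on simulated data.

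The members and lists were chosen with earlier results of these data known. Genes named were the members detected in at least 50% of profiles, the 6 highest and 6 lowest in rho with Acan and with Col10a1 among those detected in at least 20%, the 6 largest Col10a1 differences each way, and fixed genes of each step. Others were named after their values were seen, to complete a step or a count. Positions are from RefSeq on GRCm38.p6, the same build as mm10, and exon overlaps from GENCODE. Software was SciPy 1.17.1, pandas 2.3.3, NumPy 2.4.6 and matplotlib 3.10.9 under Python 3.11.15.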

Additional observations from a re-analysis of the deposited data

How the results depend on the processing

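The cells are 1 sample with unknown depth, so that neither spread between animals nor dropout can be measured, and counts near a threshold move with settings. No paired analysis was possible because no result comes from a test between groups of samples. Keeping columns apart, keeping the dropped column, requiring Acan of at least 8, removing the 10% of profiles that detected fewest genes and calling Col10a1 high from 10 left each main count within 1.5 times. Over all profiles, 10 of 59 members had a rho of at least 0.2 with Col10a1 (8.15% of all genes) and 14 were higher in profiles high in Col10a1 (7.96%). With detected genes regressed out these counts were 1 (3.79%) and 4 (2.18%). Upper-quartile scaling gave 15 members with a rho of at least 0.2 with Acan (15.4% of all genes), 9 with Col10a1 (13.1%), and a median rho of 0.13 with Acan (0.08 over all genes, against 0.02 as deposited). A pseudocount of 0.1 gave 18 members higher in profiles high in Col10a1 (18.02% of all genes) and 1 lower (3.49%), and, chosen after seeing the data, 13 higher (16.96%) and 27 lower (27.7%) with Acan below 5. Of the 31 members with proteoglycan roles alone, 5 were higher in profiles high in Col10a1 (7.5% of all genes). Pearson coefficients gave 7 of 59 members at 0.2 with Col10a1 (7.62% of all genes), and Acan as a covariate, added after seeing the data, gave 2 (6.51%). With any value above 0 as detection, a chondroitin-starting gene was detected in 61.9% of profiles and Slc26a2 in 88.6%. With a value of at least 10, 10 members reached 50% of profiles, and the shares were 27.8% for xylosyltransferases, 36.9% for chondroitin starters, 77.8% for PAPS synthases and 69.9% for Slc26a2. The cause of these shifts was not tested. Of the values for main counts, medians and shares under these alternatives, 21 moved and 90 did not. Of values for single genes, 25 moved and 323 did not. A count moved when it changed by more than 1.5 times, and a share when it left its interval. A rho or difference moved when it passed a limit set from the number of profiles or the spread of values. Some values could not move. A pseudocount changes no rank and so no Spearman rho, and keeping the dropped column left the Col10a1 differences unchanged. The numbers that did not move therefore do not measure robustness.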
